A study of Homo sapiens with 8 samples.

Results

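The hypoxia-inducible factors HIF1A and EPAS1, the prolyl hydroxylase EGLN3 and 7 of their target genes outside glycolysis (ANKRD37, NDRG1, AK4, BNIP3, ADM, CA12 and CA9) were followed in human melanomas. The tumours came from mice given doxycycline, to induce Omomyc, or vehicle. The genes followed were chosen by gene symbol, as 10 genes, of which 9 had a row in the deposited table, out of 17492 genes in all. CA9, the cell-surface carbonic anhydrase, had no row under its symbol and was not analysed here. The tumours were SkMel147, an established human melanoma line, grown subcutaneously in BALB/c nude mice, which lack T cells but keep natural killer and myeloid cells. Drinking water with doxycycline, meant to switch on Omomyc in the tumour cells, was given to 1 group and its vehicle to the other from a tumour size of 100 mm3. The tumours were taken after 7 days. Each group gave 4 tumours and each tumour 1 Affymetrix array. Omomyc is an engineered piece of MYC that takes up the partners and DNA sites of MYC. Both groups are labelled as the same line, and no tumours without inducible Omomyc are among the samples, so effects of the drug itself and of Omomyc cannot be told apart. The promoter of the construct, the number of clones and the age of the mice were not given in the sources used here.

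HIF1A and EPAS1 are the oxygen-sensitive subunits of the hypoxia-inducible factors. In oxygenated cells the EGLN prolyl hydroxylases mark them for VHL, which leads them to the proteasome, and when oxygen is short they accumulate, pair with ARNT and bind the core sequences ACGTG and GCGTG near their target genes. Control of these factors lies largely in the stability of the protein, which the arrays do not measure. The targets followed here act on the tumour's surroundings (ADM, CA12), on its mitochondria (BNIP3, AK4), on stress signalling and differentiation (NDRG1) and on the pathway itself (EGLN3). MYC and its partner MAX bind the related sequence CACGTG, which contains the hypoxia core ACGTG on both strands.

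Promoter sequences are shown for 4 of the genes, because 3 of them carry the MYC site in the 250 bases before the gene start and the other, ADM, carries a hypoxia core alone. HIF1A, EPAS1, CA9 and CA12, which are not shown, also had 1 hypoxia core and no CACGTG. BNIP3, AK4 and ADM were lower with doxycycline and ANKRD37 was not called, as described below. The sequences are those of RefSeq (GRCh38.p14), read in the direction of the gene, and capitals mark every ACGTG or GCGTG on either strand, so that CACGTG and runs such as CACGC on the given strand are also in capitals. BNIP3 lies on the minus strand at chr10:131981924-131982173, and the others lie on the plus strand, AK4 at chr1:65147302-65147551, ADM at chr11:10304823-10305072 and ANKRD37 at chr4:185396591-185396840.
BNIP3: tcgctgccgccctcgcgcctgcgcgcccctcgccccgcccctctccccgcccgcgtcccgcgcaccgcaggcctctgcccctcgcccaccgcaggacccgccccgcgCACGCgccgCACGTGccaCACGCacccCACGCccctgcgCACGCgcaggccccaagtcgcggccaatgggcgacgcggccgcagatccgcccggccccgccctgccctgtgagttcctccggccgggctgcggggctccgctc
AK4: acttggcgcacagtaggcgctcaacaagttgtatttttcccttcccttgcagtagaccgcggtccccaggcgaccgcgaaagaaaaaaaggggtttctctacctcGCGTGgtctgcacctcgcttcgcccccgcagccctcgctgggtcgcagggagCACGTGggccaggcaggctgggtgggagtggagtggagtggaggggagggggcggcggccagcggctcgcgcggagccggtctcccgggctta
ADM: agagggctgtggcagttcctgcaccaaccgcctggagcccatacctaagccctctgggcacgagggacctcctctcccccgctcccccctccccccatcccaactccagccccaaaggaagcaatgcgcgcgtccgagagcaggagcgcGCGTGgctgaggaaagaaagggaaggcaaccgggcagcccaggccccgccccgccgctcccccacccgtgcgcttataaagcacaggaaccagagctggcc
ANKRD37: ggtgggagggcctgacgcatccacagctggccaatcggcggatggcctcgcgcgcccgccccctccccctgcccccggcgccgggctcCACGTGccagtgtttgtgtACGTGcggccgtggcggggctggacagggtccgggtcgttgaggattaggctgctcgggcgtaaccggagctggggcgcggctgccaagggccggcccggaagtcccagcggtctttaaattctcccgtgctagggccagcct
CACGTG began 134 bases before the start in BNIP3, 93 before it in AK4 and 162 before it in ANKRD37. BNIP3 had 4 further matches to GCGTG on the opposite strand, at 143, 125, 116 and 104 bases, AK4 had 1 GCGTG at 145 bases, ADM had 1 GCGTG at 101 bases, and ANKRD37 had 1 further ACGTG at 143 bases. Of the 10 genes 9 had such a window (NDRG1 had none here, and the unmeasured CA9 is counted), 8 of the 9 held ACGTG or GCGTG on either strand, and 3 held CACGTG. Over the 12275 measured genes with a window of the same length, 51.2% held ACGTG or GCGTG and 7.84% held CACGTG. These matches are letters in a window and say nothing of binding. EGLN3 had no match in its window.

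NDRG1, AK4, BNIP3, ADM and CA12 fell in the tumours of doxycycline-treated mice, by 3.20-fold to 6.45-fold, while HIF1A, EPAS1, EGLN3 and ANKRD37 were not called. Of the 9 genes, 5 fell and none rose at an adjusted p under 0.05 in limma, a linear model fitted to all genes with Benjamini-Hochberg adjustment over all of them. Over all 17492 genes 6.03% fell and 4.75% rose. For the 5 that fell, all 4 doxycycline arrays lay below all 4 vehicle arrays, as was so for 8.83% of all genes (8.86% lay wholly above). The median log2 fold change was -1.68 over the 9 genes and 0.04 over all genes. The 9 genes were chosen with earlier results on NDRG1 and AK4 known, so the count is a description of these genes.

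**Figure D1:**
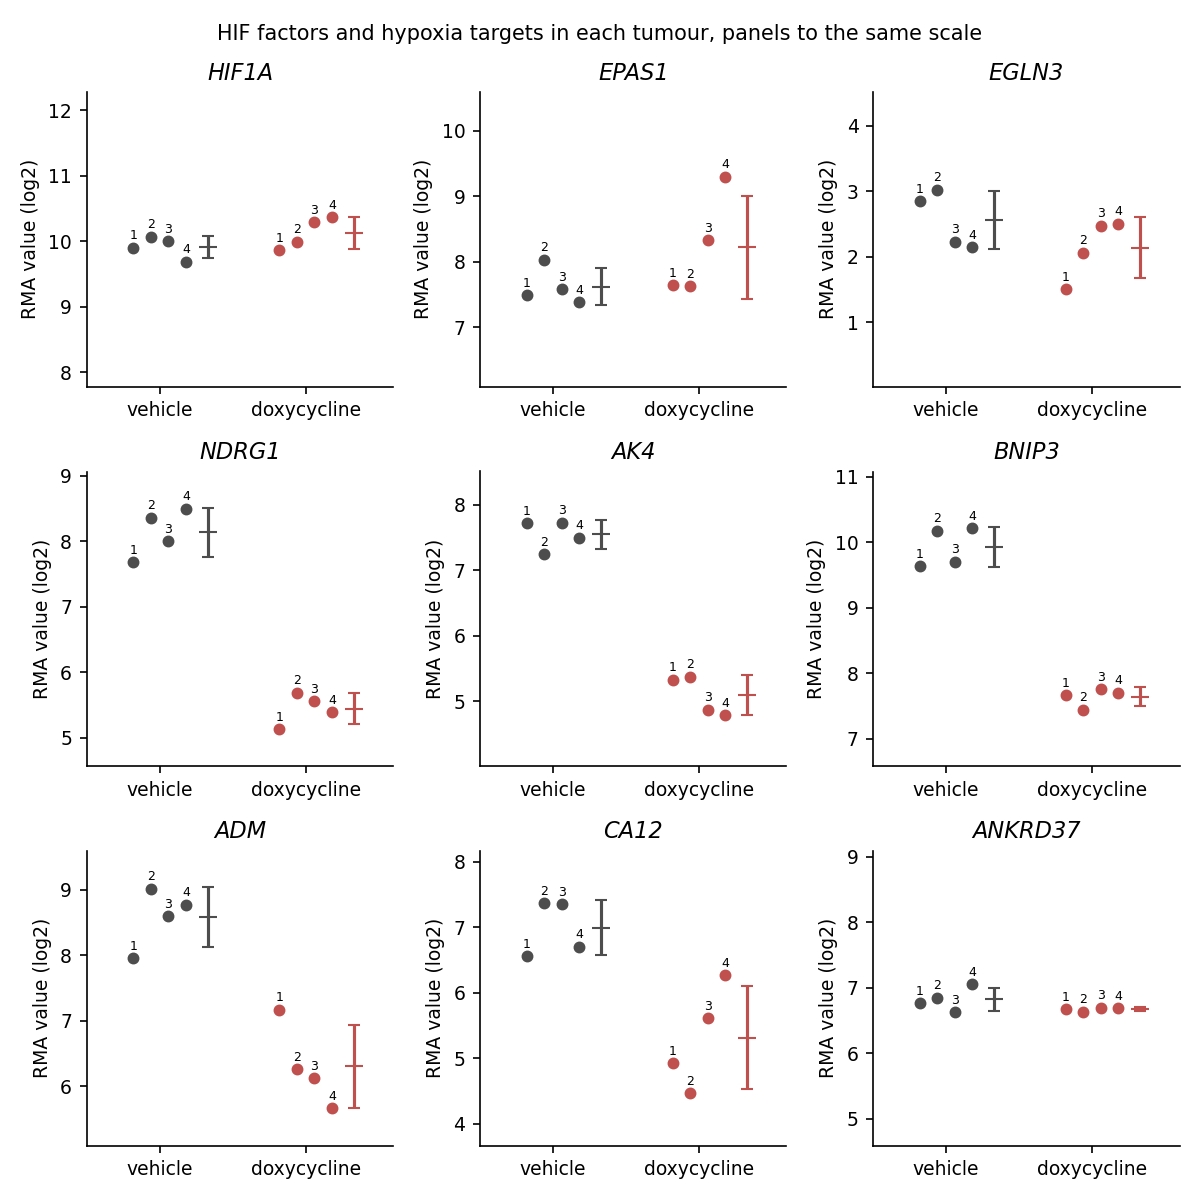
RMA value (log2) of each of the 9 measured genes in every tumour, with vehicle in grey and doxycycline in red. Digits are replicate numbers, which were not treated as pairs in the main comparison, and the bars beside the points are the mean ± SD (n = 4). For NDRG1, AK4, BNIP3, ADM and CA12 the 2 groups do not overlap.

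HIF1A, the widely expressed factor, was at 9.91, 10.07, 10.01 and 9.69 in the vehicle arrays 1 to 4 and at 9.86, 9.999, 10.30 and 10.37 in the doxycycline arrays (log2). The groups overlapped, and their means differed by 0.21 ± 0.18 (SE), which was not called (limma adjusted p = 0.543). Its 95% interval ran from -0.19 to 0.62, so a fall of the size seen in the 5 genes that were called lay outside it. EPAS1, the factor with a more restricted pattern of expression, was at 7.49, 8.03, 7.58 and 7.39 in vehicle and at 7.65, 7.63, 8.33 and 9.30 in doxycycline tumours. Doxycycline replicates 3 and 4 lay above every vehicle array, and replicates 1 and 2 lay within the vehicle range. The mean moved from 7.62 ± 0.29 to 8.22 ± 0.79 (SD, n = 4), a difference of 0.60 ± 0.35 (SE) that did not pass (limma adjusted p = 0.332), with an interval from -0.16 to 1.37. Without doxycycline replicate 4 it was at 0.24 (adjusted p = 0.627). Whether the factors changed by different amounts was tested on the log2 difference of HIF1A minus EPAS1 within each array. That quantity averaged 2.30 ± 0.18 with vehicle and 1.91 ± 0.58 with doxycycline (SD, n = 4). The groups overlapped, and a two-sided exact permutation test gave p = 0.229 (0.343 adjusted over 3 pairs). The difference between the groups was -0.39, and -0.11 without doxycycline replicate 4.

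EGLN3, the hydroxylase that HIF itself induces, had low values, at 2.84, 3.02, 2.23 and 2.14 in vehicle and 1.504, 2.06, 2.47 and 2.50 in doxycycline arrays. The groups overlapped and the difference was -0.43 ± 0.28 (SE; limma adjusted p = 0.408). Its mean over the arrays stood at percentile 13.8 of all genes, and how far its probes lay above background is not known, so a change of EGLN3 could be understated. EGLN1, the main hydroxylase in most cells, was at 7.39 to 7.77 in vehicle and 6.98 to 7.35 in doxycycline arrays. These groups did not overlap, but the change of -0.41 ± 0.17 (SE) was not called (limma adjusted p = 0.183). EGLN3 minus EGLN1 within an array averaged -5.04 ± 0.47 with vehicle and -5.06 ± 0.53 with doxycycline (SD, n = 4), and the two-sided exact permutation test gave p = 1, also when adjusted over 3 pairs.

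The partners and regulators of the factors were listed as 15 genes, of which 13 were measured. Of these, 1 fell (7.69%, against 6.03% of all genes) and none rose, with a median log2 fold change of 0.06. SIAH2, a ubiquitin ligase that degrades prolyl hydroxylases, was the one that fell. It was at 8.02, 7.49, 7.63 and 7.91 in vehicle and 6.29, 6.43, 6.60 and 6.20 in doxycycline arrays, a change of -1.38 ± 0.19 (SE; limma adjusted p = 0.000902). All doxycycline arrays lay below all vehicle arrays. ARNT, the shared partner, was at 7.26 ± 0.04 in vehicle tumours and 7.61 ± 0.11 with doxycycline (SD, n = 4), and HIF1AN, the asparagine hydroxylase that blunts the factors' activity, at 7.66 ± 0.33 and 8.22 ± 0.07. Neither passed, at differences of 0.35 and 0.56 (limma adjusted p of 0.198 and 0.0988), although in each the 4 doxycycline arrays lay above the vehicle arrays. CITED2, a HIF target that competes with the factors for the coactivators, was at 1.00 ± 0.32 (SE; limma adjusted p = 0.0806). The vehicle arrays spanned 7.65 to 8.35. Doxycycline replicate 1 (8.04) lay inside that span, and the other 3 doxycycline arrays were above it at 9.25 to 9.64. Without that array CITED2 was at 1.34 and passed (limma adjusted p = 0.0044). Leaving out other single arrays took CITED2 as far as 0.81 (limma adjusted p up to 0.192). VHL, which recognises the hydroxylated factors, and its complex members ELOB, ELOC, CUL2 and RBX1 were at -0.05, -0.32, 0.02, -0.33 and 0.12. The remaining genes of the list, EGLN2, HIF3A and CREBBP, were at 0.09, 0.38 and 0.06, and none of these 8 genes passed (limma adjusted p of 0.36 to 0.952).

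NDRG1 was lower by 6.45-fold, the largest fold among the 9 genes. It encodes a cytoplasmic stress protein, named for its repression by N-myc, that HIF induces and that is studied as a suppressor of metastasis. Its values were 7.68, 8.36, 8.002 and 8.50 in vehicle and 5.14, 5.69, 5.56 and 5.39 in doxycycline arrays. The gap between the lowest vehicle and the highest doxycycline array was wider than the range within either group. The log2 fold change was -2.69 ± 0.22 (SE; limma adjusted p = 6.32e-05), with an interval from -3.18 to -2.20.

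BNIP3 and AK4 act at the mitochondria. BNIP3 sits in the outer membrane and recruits the autophagy machinery, so that mitochondria are removed under hypoxia. It was at 9.64, 10.18, 9.70 and 10.22 in vehicle and 7.67, 7.45, 7.76 and 7.71 in doxycycline arrays. The doxycycline tumours were close together (SD 0.14, n = 4) and far below every vehicle tumour, with a change of -2.29 ± 0.19 (SE; limma adjusted p = 6.86e-05), or 4.89-fold. AK4, a kinase of the mitochondrial matrix that balances adenine and guanine nucleotides, was at 7.72, 7.24, 7.72 and 7.50 in vehicle and 5.33, 5.37, 4.87 and 4.79 in doxycycline arrays. It fell by 2.46 ± 0.20 (SE) on the log2 scale, or 5.49-fold (limma adjusted p = 6.56e-05), and all doxycycline arrays again lay below all vehicle arrays.

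BNIP3L, the close relative of BNIP3 that also serves as a receptor for the removal of mitochondria and is itself a known HIF target, was not called. It was at 9.87, 9.77, 10.13 and 10.14 in vehicle and 9.95, 10.24, 10.31 and 9.79 in doxycycline arrays, and the groups overlapped. The difference was 0.10 ± 0.19 (SE; limma adjusted p = 0.817), with an interval from -0.32 to 0.51. Within each array, BNIP3 minus BNIP3L averaged -0.04 ± 0.36 with vehicle and -2.43 ± 0.31 with doxycycline (SD, n = 4), so the relatives differed in their change by -2.38 on the log2 scale. The groups did not overlap in this difference, and the exact two-sided permutation p of 0.0286 is the smallest that 4 against 4 arrays can give. Adjusted over the 3 pairs tested it was 0.0857, which does not pass. The list for the removal of mitochondria, which does not include BNIP3, had 9 measured genes. Of these, 2 rose (22.2%, against 4.75% of all genes) and none fell, with a median of 0.28. The outer-membrane receptor BCL2L13 rose by 0.81 ± 0.18 and NIPSNAP1 by 0.92 ± 0.26 (SE; limma adjusted p of 0.0182 and 0.046). NIPSNAP1 lost its call in 7 of the 8 fits that left out 1 array (all but that without doxycycline replicate 1, adjusted p of 0.0584 to 0.124), and BCL2L13 lost it in the fits without vehicle replicate 3 and without doxycycline replicate 2 (0.0603 and 0.057).

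**Figure D2:**
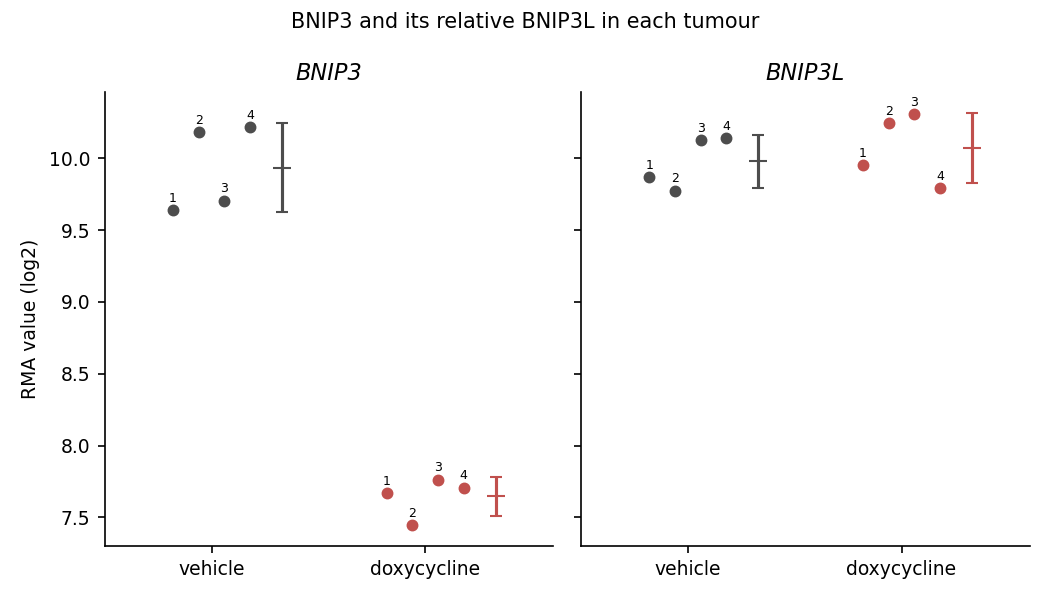
RMA values (log2) of BNIP3 (left) and BNIP3L (right) in each tumour on 1 axis, with digits for the replicate and the mean ± SD (n = 4) beside the points. BNIP3 lies between 7.45 and 7.76 in all doxycycline tumours, and BNIP3L at 9.77 to 10.14 with vehicle and 9.79 to 10.31 with doxycycline. Heights of different genes are not comparable on arrays, and only the shift within a panel is.

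ADM and CA12 act outside the cell. ADM encodes adrenomedullin, a secreted peptide that widens vessels and promotes their growth. It was at 7.95, 9.02, 8.59 and 8.77 in vehicle and 7.16, 6.25, 6.13 and 5.66 in doxycycline arrays, so vehicle replicate 1 and doxycycline replicate 1 were the closest arrays of the opposite groups. The change was -2.28 ± 0.33 (SE; limma adjusted p = 0.00135), or 4.86-fold. Of the 8 genes listed for the peptide's relatives, processing and receptor, 1 rose (12.5%, against 4.75% of all genes) and none fell. The gene that rose was PAM, the enzyme that amidates adrenomedullin and other peptides, by 1.28 ± 0.28 (SE; limma adjusted p = 0.0145). The receptor gene CALCRL was at -1.38 ± 0.45 (SE; limma adjusted p = 0.0825), named after its value was seen. It passed without vehicle replicate 1 (at -1.70, adjusted p = 0.0488) and without doxycycline replicate 1 (at -1.74, adjusted p = 0.0269).

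CA12, a carbonic anhydrase of the cell surface that turns carbon dioxide into bicarbonate and protons, was at 6.56, 7.37, 7.35 and 6.71 in vehicle and 4.93, 4.47, 5.62 and 6.27 in doxycycline arrays. The groups did not overlap, but doxycycline replicate 4 lay close to the lowest vehicle array. The change of -1.68 ± 0.37 (SE; limma adjusted p = 0.0145), or 3.20-fold, had the widest interval of these 5 genes, from -2.49 to -0.87. It was not called when vehicle replicate 2 and doxycycline replicate 1 were both left out (at -1.42, adjusted p = 0.0765). Tested against a fold of at least 1.5, CA12 did not pass either (adjusted p = 0.169). Of 13 measured transporters of bicarbonate and protons, 1 fell (7.69%, against 6.03% of all genes) and none rose. The gene that fell was SLC16A7, which carries pyruvate and lactate, by 1.32 ± 0.22 (SE; limma adjusted p = 0.00334). In fits without 1 array, the sodium-proton exchanger gene SLC9A2 fell as well without vehicle replicate 2 and the sodium-bicarbonate cotransporter gene SLC4A7 without doxycycline replicate 1 (at -1.31 and -1.35, adjusted p of 0.033 and 0.00395), both named after their values were seen. Of 19 measured relatives of NDRG1, AK4 and CA12, 1 fell (5.26%, against 6.03% of all genes) and none rose, with a median of 0.29. The relative that fell was AK3, a nucleotide kinase of the mitochondrial matrix, by 0.68 ± 0.17 (SE; limma adjusted p = 0.0266). AK3 lost its call in 5 of the 8 fits that left out 1 array (vehicle replicates 3 and 4 and doxycycline replicates 2, 3 and 4, adjusted p of 0.059 to 0.0807).

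ANKRD37, a small ankyrin repeat protein whose gene is a direct HIF target in many cells, was at 6.76, 6.85, 6.62 and 7.05 in vehicle and 6.68, 6.64, 6.69 and 6.69 in doxycycline arrays. All doxycycline values lay inside the vehicle range, and the change of -0.15 ± 0.16 (SE) was not called (limma adjusted p = 0.657). Its interval, from -0.50 to 0.21, does not overlap that of any gene of the group that fell.

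**Figure D3:**
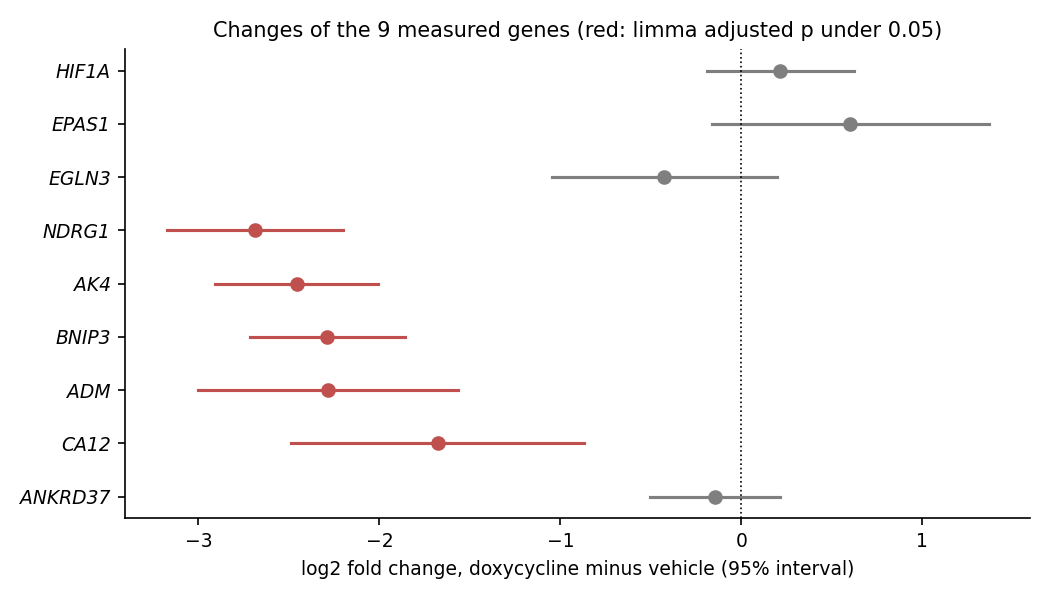
Log2 fold change, doxycycline minus vehicle, of the 9 measured genes with its 95% interval from limma. Red marks the 5 genes with adjusted p under 0.05, whose intervals overlap one another, and the intervals of HIF1A, EPAS1, EGLN3 and ANKRD37 include 0.

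The 5 genes that fell did not order the tumours alike within the groups. Vehicle replicate 1 was the lowest vehicle array for NDRG1, BNIP3, ADM and CA12, and vehicle replicate 2 was the lowest for AK4. Among the doxycycline tumours, replicate 4 was the lowest for AK4 and ADM and the highest for CA12, HIF1A, EPAS1 and, by a small margin, EGLN3. Doxycycline replicate 1 was the lowest for NDRG1 and the highest for ADM. The genes with profiles nearest to NDRG1 over the 8 arrays, by the root mean square distance of centred log2 values, were the spermine synthase gene SMS (0.29), the adaptor gene SHC3 (0.30) and the mitochondrial lipid gene TAMM41 (0.32), which fell by 2.60, by 2.30 and by 2.42. Those nearest to HIF1A were PPP1R11, VTN and AP2S1 (0.078, 0.083 and 0.089). Those nearest to EPAS1 were PSG4, PRLR and UNC13A (0.12, 0.15 and 0.19), of which PSG4 belongs to a family of near-identical genes whose probes may be shared. PSG4, PRLR and UNC13A had low values in vehicle arrays (2.63 to 3.24, 1.85 to 2.46 and 1.84 to 2.34). Their distance from background is not known. Each was highest in doxycycline replicate 4 (4.53, 3.83 and 3.81), as EPAS1 was. None of these last 6 genes was called. The distance takes in the group difference, so a change of like size in these neighbours follows from how they were picked.

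Other targets of HIF outside glycolysis were taken from a list of 38 genes. Of the 34 measured, 7 fell and none rose, which is 20.6% against the 6.03% of all genes, with a median of -0.37. VEGFA, the vascular growth factor, was at 9.25, 9.61, 9.15 and 9.24 in vehicle and 7.22, 6.71, 6.81 and 6.92 in doxycycline arrays and fell 5.28-fold (-2.40 on the log2 scale; limma adjusted p = 5.23e-05), with no overlap of the groups. The transferrin receptor gene TFRC fell by 1.79 ± 0.20 (SE) and ERO1A, an oxidase of protein folding, by 0.80 ± 0.16 (SE; limma adjusted p of 0.000279 and 0.00968). The transcriptional repressors NFIL3 and BHLHE40 fell by 2.14 ± 0.50 and by 1.02 ± 0.26 (SE) and the mitochondrial gene FAM162A by 0.77 ± 0.19 (SE; limma adjusted p of 0.0201, 0.0281 and 0.0239). DDIT4, an inhibitor of the growth kinase mTOR, was the other gene that fell (-0.83 ± 0.23, SE; limma adjusted p = 0.0456), and is outside the rule for named genes. Leaving out single arrays moved this count, as 3 of the 34 fell without vehicle replicate 3 or vehicle replicate 4 and 4 without vehicle replicate 1 or doxycycline replicate 2. DDIT4 lost its call in 7 of the 8 fits with 1 array left out (all but that without doxycycline replicate 4, adjusted p up to 0.119), BHLHE40 in 7 (all but that without doxycycline replicate 2, up to 0.0733), FAM162A in 4 (vehicle replicates 1, 3 and 4 and doxycycline replicate 2, up to 0.0642), and NFIL3 in 3 (vehicle replicates 3 and 4 and doxycycline replicate 2, up to 0.0621).

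Among the genes of that list that did not pass, the hormone gene STC1 was at 10.64, 11.11, 10.59 and 10.87 in vehicle and 7.28, 8.98, 9.24 and 10.59 in doxycycline arrays. Doxycycline replicate 4 lay just below the lowest vehicle array, and the change of -1.78 ± 0.54 (SE) missed the threshold (limma adjusted p = 0.0603). Without that array it was at -2.30 and passed (limma adjusted p = 0.00812). Leaving out other single arrays took STC1 as far as -1.20 (limma adjusted p up to 0.125). HILPDA, a lipid droplet protein, and the nuclear receptor gene RORA were at -0.96 ± 0.29 and -0.72 ± 0.27 (SE), and ANGPTL4, an inhibitor of lipoprotein lipase, at 0.82 ± 0.31 (SE; limma adjusted p of 0.0626, 0.123 and 0.136). HILPDA and RORA passed without doxycycline replicate 3 (at -1.16 and -0.96, adjusted p of 0.0338 and 0.0346). Leaving out other single arrays took them as far as -0.75 and -0.51 (limma adjusted p up to 0.139 and 0.253).

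Glycolytic targets of HIF were compared because they share the factors. They fell in 10 of 19 cases (52.6%, against 6.03% of all genes) and rose in none, with a median of -0.86. The kinase gene PDK1, which keeps pyruvate from the mitochondria, fell by 1.98 ± 0.30 (SE), and the enzyme genes GPI and LDHA fell by 1.27 ± 0.19 and by 0.97 ± 0.15 (SE; limma adjusted p of 0.002, 0.0018 and 0.00225). SLC2A1, PFKL and PFKFB3 fell by 1.64, by 1.88 and by 1.60. The median of the 9 genes followed here lay lower, at -1.68, but the lists differ in size and were chosen by hand, and the difference between them was not tested.

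**Figure D4:**
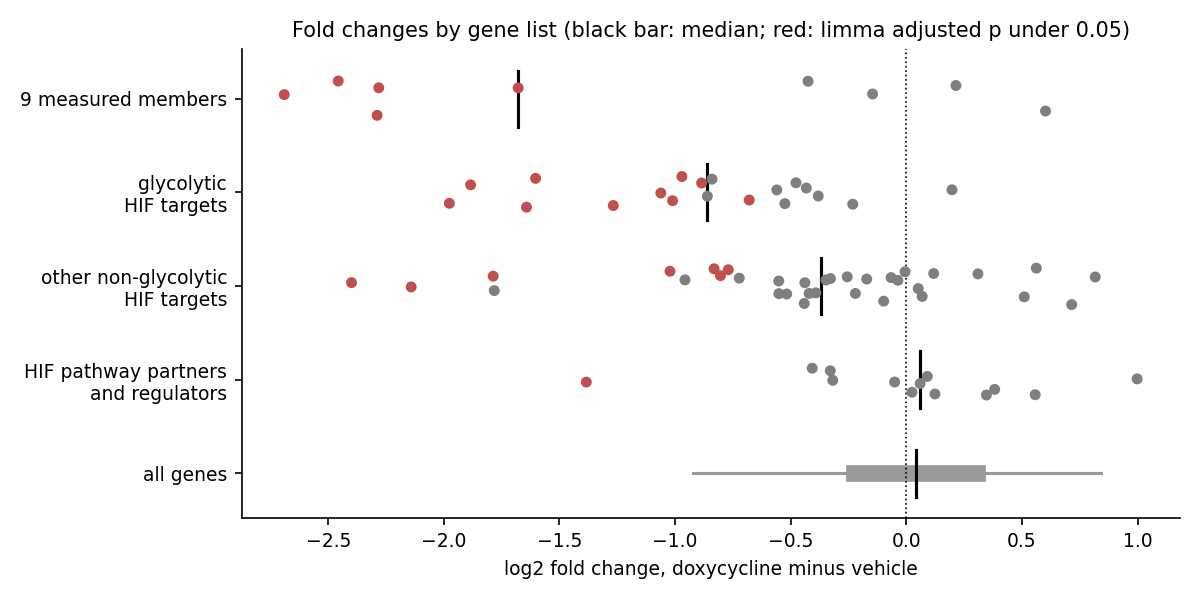
Log2 fold change, doxycycline minus vehicle, of each gene of 4 lists, with black bars for the medians and red points for genes with limma adjusted p under 0.05. For all 17492 genes the thick bar spans the quartiles and the thin line the 5th to 95th percentile, from -0.92 to 0.84. The 5 genes that fell lie left of that range, and 1 of 13 partners and regulators of HIF does.

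The arrays were alike in level, with medians between 5.04 and 5.15 (log2), which follows from RMA, as it draws arrays to a common distribution. They correlated at 0.961 to 0.982 within a group and 0.933 to 0.955 between groups, across genes, which are not independent. Vehicle replicate 2 and doxycycline replicate 4 had the highest lower quartiles (3.21 and 3.24, others 3.05 to 3.13). They also had the lowest upper quartiles (6.73 and 6.80, others 6.86 to 6.93). EPAS1 was highest in its group in each of these arrays, and a link was not tested. Vehicle replicate 2, with the lowest array weight of 0.502, lay far from its group on the second principal component (-51.4 against 14.96 to 18.5). Doxycycline replicate 4 lay apart from its group on the same component (-29.7 against 7.97 to 12.5) and doxycycline replicate 1 on the third (-48.8 against 6.21 to 27.4), with array weights of 0.786 and 0.728. Every call of NDRG1, AK4, BNIP3, ADM and CA12 held without each of these 3 arrays in turn (adjusted p up to 0.0384). Among the melanocytic markers, the pigment genes MLANA, TYR and TYRP1 averaged 2.93, 2.21 and 2.42 in vehicle tumours and the lineage factor gene SOX10 6.53, values of different probes whose distance from background is not known. The mean of the 9 listed markers was 4.09 to 4.46 in vehicle and 4.33 to 4.53 in doxycycline arrays. Of the 9, 6 had a log2 fold change below 0, and the median was -0.08. The mean of 7 fibroblast markers was 5.24 to 6.34 in vehicle and 6.46 to 7.68 in doxycycline arrays, and 3 of the 7 rose (PDGFRA by 2.51, COL1A1 by 1.25 and COL1A2 by 0.92). Of the 7, 1 was below 0 (-1.05, not called). PDGFRA was not called when vehicle replicate 1 was left out (adjusted p = 0.052) and stood at 3.10 when vehicle replicate 4 was, and COL1A2 lost its call without vehicle replicate 3 and without doxycycline replicate 3 (0.0564 and 0.0509). Myeloid markers averaged 3.85 to 4.32 and 4.22 to 5.002, with LYZ rising by 1.11, and endothelial and lymphoid markers had 0 of 8 and 0 of 6 called. MIA among the melanocytic markers and NGFR among 9 of dedifferentiated melanoma rose by 1.51 and by 2.06, calls that each ended in 6 of the 8 fits with 1 array left out (adjusted p up to 0.126 and 0.0881). Of the 8 myeloid markers 2 were below 0, as were 3 of the 9 of dedifferentiated melanoma. The tumour cells are human, and the cells of the host are mouse cells. Whether the fibroblast, immune and endothelial marker signals come from tumour cells or from mouse RNA on the probes was not tested. The part of these markers in the falls of the hypoxia targets was not tested. In whole tumours, fewer cells that express a gene and less RNA of it per cell cannot be told apart.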

How the data were processed

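Total RNA of 8 tumours, 4 of each group, was hybridised to 1 array each. The authors deposited log2 values. Per the submitters' processing notes these come from RMA, which corrects background, quantile-normalises and summarises probes. Its software, version and filters were not given in the sources used here. Since RMA draws arrays to one distribution, a shift of most genes in 1 direction would be partly removed. Scanner values were not used here, and the number of arrays limits the precision.

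Of 18569 rows, 17511 had 1 gene symbol in the platform annotation. The 1058 rows without a single symbol there were left out. For 17 genes with several rows the row with the highest mean was kept, leaving 17492 genes, with no filter. Groups come from the sample titles. That the replicates are separate tumours is taken from the words biological replica, and no litter or batch is given. Doxycycline was compared with vehicle in limma 3.58.1 (lmFit, eBayes; R 4.3.3), two-sided. Pairs of relatives were compared by exact permutation over the arrays (BNIP3 with BNIP3L, EGLN3 with EGLN1, HIF1A with EPAS1), and the planned pair of CA12 with CA9 could not be tested. Intervals are 95% intervals of the log2 fold change. The limma fit, but not the permutation test, was tried on simulated data with independent noise in each gene and array.

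The genes and lists were chosen with earlier results of these data known. Named genes were the 9 measured genes, all measured HIF partners and regulators, the called genes of each other list up to the 6 with the smallest p, the 4 uncalled other HIF targets with the largest change, the second gene of each pair, and the 3 genes nearest in profile to NDRG1, HIF1A and EPAS1. Lists not measured in full were those of HIF partners (2 of 15 absent), other targets (4 of 38), glycolytic targets (2 of 21), relatives (5 of 24), mitophagy (3 of 12), transporters (4 of 17) and, among the markers, melanocytic, fibroblast and lymphoid genes (1, 1 and 2 absent). Alternatives, 19 in all, were quantile normalization on top, centring on medians or on ribosomal protein genes, leaving out the dimmest 40%, a trended and robust prior, array weights, a replicate block, the mean of rows, a minimum fold of 1.5, and leaving out 1 array or 2 chosen pairs of arrays. Promoter sequences come from RefSeq. Figures were drawn in Python 3.11.15.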

Additional observations from a re-analysis of the deposited data

Results flagged for a closer look

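For the 9 genes, no array's gap to the nearest other, as a share of the group's range, exceeded the 95% limit for 4 samples. With 4 arrays that limit also passes wide gaps. An example is EPAS1 in doxycycline replicate 4 (9.30, others 7.63 to 8.33). Among the other named genes, 6 of the 100 groups of 4 arrays tested had 1 array whose gap to the nearest other exceeded the 95% limit for 4 samples, and chance alone flags about 1 group in 20. Vehicle replicate 3 was high for CUL2 (7.68, others 7.34 to 7.37) and low for LYZ (3.29, others 3.77 to 3.80). Vehicle replicate 4 was high for FAM162A (7.84, others 7.70 to 7.71) and low for PPP1R11 (7.92, others 8.16 to 8.18) and VTN (3.50, others 3.90 to 3.95). Doxycycline replicate 2 was high for VHL (7.42, others 7.09 to 7.12).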

How the results depend on the processing

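NDRG1, AK4, BNIP3 and ADM kept their direction and their call in all 19 alternatives, with log2 fold changes of -2.84 to -2.45, -2.64 to -2.22, -2.39 to -2.05 and -2.57 to -1.92. CA12 did in 17 and did not pass against a fold of 1.5 (-1.68) or with vehicle replicate 2 and doxycycline replicate 1 both left out (-1.42). HIF1A, EPAS1 and EGLN3 stayed uncalled wherever they were fitted. EGLN3 was among the dimmest genes and could not be fitted without them. The ribosomal protein genes used for centring were themselves lower with doxycycline. Of the 28 measured, 26 were below 0 and 2 were called lower, with a median of -0.20. Centring on them therefore raised every other gene, and shifted the all-gene median from 0.04 to 0.28. There ANKRD37 turned to 0.091 and VHL to 0.19, and 694 genes fell and 1767 rose. In that setting 3 HIF partners (ARNT, HIF1AN and CITED2) rose, and 3 other targets fell and 2 rose (P4HA2 and PPFIA4). Against a fold of 1.5, 433 genes were called, 339 falling and 94 rising, with 2 other targets and 4 glycolytic targets falling. With the replicate block 502 genes rose and no call of the 9 genes changed, while AK3, BCL2L13, NIPSNAP1, DDIT4, FAM162A and MIA lost their calls (adjusted p of 0.0658 to 0.107) and STC1 gained one (0.0485). The deviations of same-numbered arrays from their group means correlated at -0.16 to 0.03 across genes. Whether equal numbers stand for a shared batch or day is not given. HIF partners that rose numbered 1 (CITED2) without the dimmest genes, with array weights and with vehicle replicate 2 and doxycycline replicate 1 both left out, where 4 other targets fell. With a trended and robust prior 1 partner (HIF1AN) and 1 other target (P4HA2) rose. With 1 array left out, 1252 to 1760 genes were called, 503 to 727 rose, 3 to 7 other targets fell and 0 to 1 rose (P4HA2, without doxycycline replicate 3), and 0 to 1 HIF partners rose (CITED2, without doxycycline replicate 1). VHL was at 0.019 with array weights and 0.044 and 0.045 without the pairs of arrays, and ELOC at -0.019 with quantile normalization. With 1 array left out, VHL ranged from -0.128 to 0.021 and ELOC from -0.060 to 0.076. HIF1A minus EPAS1 was at -0.54 to -0.11 with 1 array left out. EGLN3 minus EGLN1 was at -0.20 to 0.24 with 1 array left out and at 0.34 and 0.0098 without the pairs of arrays. BNIP3 minus BNIP3L was at -2.28 and -2.35 without the pairs of arrays, where 3 against 3 cannot go below an exact p of 0.1. Of the transporters, 0 to 3 fell and 0 to 1 rose (BSG) over the 19 alternatives. Of the relatives of NDRG1, AK4 and CA12, AK5 and CA5A rose with arrays centred on medians or on ribosomal protein genes, NDRG3 only with the latter and CA5A also with array weights. The causes were not tested. No scanner values were used here, so dim genes such as EGLN3 have no known distance from background.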
